A study of Mus musculus with 8 samples.

Results

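The constitutive proteasome subunit genes were examined here in the cells of subcutaneous mouse tumors grown in hosts with and without Atg7. The genes were chosen by name only, as the rows Psma1 to Psma8, Psmb1 to Psmb7, Psmc1 to Psmc6 and Psmd1 to Psmd14 that were present in every matrix. Of 35 symbols found under this rule, 34 had a row in all 8 matrices, out of 19024 gene symbols in all, and Psma8, a testis form of an outer-ring subunit, had a row in only 4 matrices and was not used. Expression was measured by droplet-based RNA sequencing from the 5′ end of transcripts, in 8 libraries of tumors of MB49, a urothelial cancer cell line of a male C57Bl/6J mouse. The wild-type hosts (libraries 1, 2, 5 and 6) were C57BL/6 mice of genotype UbcreERT2/+;Atg7+/+ and the deleted hosts (libraries 3, 4, 7 and 8) carried floxed Atg7 (Atg7f/f) with the same Cre. Both genotypes therefore carried a tamoxifen-inducible Cre driven by the ubiquitin C promoter, and tamoxifen was given on each of 4 days. Tumor cells, which keep their own Atg7 in both hosts, were injected 1 week later and tumors were taken 3 weeks after that. Each mouse bore 2 tumors and no label links a tumor to its mouse, so that libraries of 1 genotype may share an animal, and the p-values below measure the spread between these libraries and may then be too small. Host age is not stated in the labels.

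The proteasome and autophagy are the main routes by which cells degrade their own proteins. Atg7 is the E1-like enzyme needed to couple ubiquitin-like proteins to autophagosome membranes. The 26S proteasome holds a barrel-shaped core of alpha and beta rings, in which the beta subunits of Psmb5, Psmb6 and Psmb7 cut the substrate, and a regulatory particle whose base unfolds substrates with 6 ATPases and whose lid removes ubiquitin chains. When proteasome activity is short, the transcription factor NRF1 (Nfe2l1) is known to raise the subunit genes together. In immune cells and under interferon, the immunoproteasome subunits of Psmb8, Psmb9 and Psmb10 take the place of the cutting subunits. The comparison asked whether host cells that lack autophagy carry more RNA of the proteasome subunits.

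Cells were grouped by clustering and named by marker genes, and levels are means over the cells of a class of unique molecular identifiers (UMIs, counted RNA molecules) of a gene per 10000 UMIs of the cell. The host classes with enough cells were T-like, natural killer (NK)-like, dendritic-like, monocyte/macrophage-like, neutrophil-like and fibroblast-like cells, beside malignant-like cells, with 673 to 10397 cells per class. NK-like and dendritic-like cells of wild-type library 1 (9 and 17 cells) were too few, leaving 3 wild-type libraries in these classes. Every marker of the T, dendritic, monocyte/macrophage, neutrophil and fibroblast lists had UMIs in each library of its own class, as did 6 of 8 NK markers and 5 of 7 malignant markers, while Epcam had no UMI in malignant-like cells. The 8 NK markers summed in NK-like cells to 39.7 to 53.2 UMIs per 10000 in wild-type and 16.3 to 37.1 in deleted libraries, without overlap. The part of this in the NK-like results was not tested. Total UMIs per library ran from 4371773 to 59235799. Depth leaned with genotype in some classes. The median UMIs per malignant-like cell averaged 14147 ± 3129 (SD, n = 4 libraries) for wild-type hosts and 6009 ± 6228 (SD, n = 4) for hosts without Atg7 (two-sided exact permutation test, p = 0.0857). Those of NK-like cells averaged 1946 ± 496 (SD, n = 3) and 3828 ± 1314 (SD, n = 4). In NK-like cells the genotypes did not overlap, with 1384 to 2322 in wild-type and 2396 to 5242 in deleted libraries. The two-sided exact permutation p of 0.0571 there is the smallest that 3 against 4 libraries can give, so this test could not fall below 0.05. The part of these depth differences in the results below was not tested beyond a repeat in cells of at least 2000 UMIs. Malignant-like cells of deleted libraries 3 and 4 numbered only 44 and 148. These 2 libraries also stood apart in their host cells other than fibroblast-like cells, which held more fibroblast-marker UMIs per 10000 than those of any wild-type library.

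Atg7 itself was checked first. In monocyte/macrophage-like cells its level was 0.307 ± 0.121 (SD, n = 4) in wild-type hosts, from 0.190 to 0.472, and 0.0959 ± 0.0689 (SD, n = 4) in deleted hosts, between 0 and 0.152. The genotypes did not overlap there (two-sided exact permutation p = 0.0286, the smallest that 4 against 4 libraries can give, adjusted p = 0.2 over 7 classes). In the other 6 classes the ranges overlapped. Mean Atg7 was not lower in deleted hosts in T-like (0.157 in wild-type, 0.162 in deleted), neutrophil-like (0.423 and 0.551) or malignant-like cells (0.240 and 0.243). It was lower in NK-like (0.181 and 0.0649), dendritic-like (0.150 and 0.0458) and fibroblast-like cells (0.148 and 0.0995). Loss of Atg7 RNA was thus not seen in T-like or neutrophil-like cells. In NK-like cells the overlap was slight, with a lowest wild-type level of 0.0816 and a highest deleted level of 0.0874. Reads from the 5′ end need not cover the deleted exons, which the labels do not give, so Atg7 RNA checks the deletion only in part.

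The summed level of the 34 genes overlapped between genotypes in all 7 classes. In T-like cells the sum over the 34 genes, per 10000 UMIs, was 38.4, 43.5, 27.4 and 39.4 for wild-type libraries 1, 2, 5 and 6, and 37.1, 35.9, 27.8 and 27.2 in deleted libraries 3, 4, 7 and 8. Monocyte/macrophage-like cells had 47.7, 48.6, 34.2 and 42.7 in the wild-type libraries and 38.9, 47.8, 35.9 and 33.5 in the deleted libraries. In both classes the genotypes overlapped, and the deleted mean was 0.861 and 0.902 times the wild-type mean. The same ratio was 0.959 in NK-like, 0.839 in dendritic-like and 0.823 in fibroblast-like cells, with overlap in each, and 0.974 in malignant-like cells.

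Neutrophil-like cells had the opposite direction and the lowest level. Their summed level was 14.2, 12.5, 8.72 and 11.3 in wild-type libraries 1, 2, 5 and 6 and 26.2, 22.8, 10.3 and 13.3 in deleted libraries 3, 4, 7 and 8, a ratio of 1.55. Deleted libraries 3 and 4 lay above every wild-type library, and deleted libraries 7 and 8 lay within the wild-type range. Among libraries 1 to 4 the ratio was 1.83 and among libraries 5 to 8 it was 1.18. Across classes in wild-type hosts the mean summed level was 44.4 ± 9.75 (SD, n = 3) in dendritic-like, 43.9 ± 8.49 (SD, n = 4) in malignant-like, 43.3 ± 6.59 (SD, n = 4) in monocyte/macrophage-like, 37.2 ± 6.90 (SD, n = 4) in T-like, 31.5 ± 7.0 (SD, n = 4) in fibroblast-like, 30.2 ± 7.74 (SD, n = 3) in NK-like and 11.7 ± 2.30 (SD, n = 4) in neutrophil-like cells. The first 6 of these overlapped with their neighbours in this order, and neutrophil-like cells lay below all of them in every wild-type library.

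**Figure D1:**
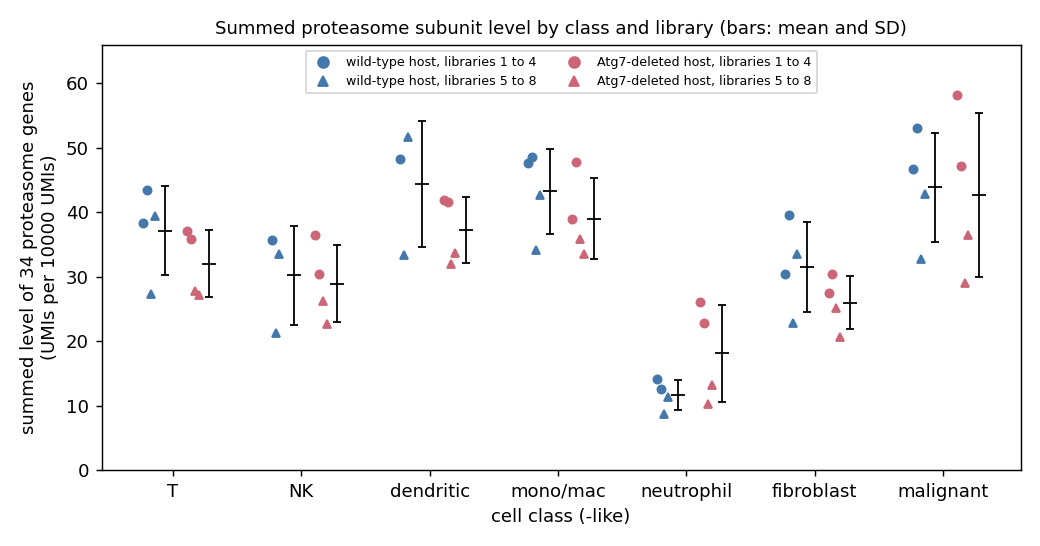
Summed level of the 34 proteasome genes (vertical axis, UMIs per 10000 UMIs) in each cell class (horizontal axis), 1 point per library with at least 20 cells of the class, in blue for wild-type and red for Atg7-deleted hosts, circles for libraries 1 to 4 and triangles for libraries 5 to 8; bars are mean and SD. Genotypes overlap in every class, and in neutrophil-like cells the deleted libraries 3 and 4 (26.2 and 22.8) stand above the rest.

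No proteasome gene passed the test between genotypes in any class. Levels were compared on a log2 scale, log2(UMIs per 10000 + 0.1), with limma (empirical Bayes with a trend) across all genes of a mean level of at least 0.2, and a gene was called at a Benjamini-Hochberg adjusted p below 0.05 over all genes of its class. A fold change on this scale understates the change of low genes. In T-like cells 0 of 34 tested members were called, against 1.56% of 5633 genes, and 2 members had an unadjusted p below 0.05, against 17.7% of all genes. For monocyte/macrophage-like cells 0 of 34 were called (0.0181% of 5530 genes), with 4 members at an unadjusted p below 0.05 (8.57% of genes). In fibroblast-like cells 0 of 33 were called (0.0884% of 5653 genes) and 2 had an unadjusted p below 0.05 (11.3%). In neutrophil-like cells 0 of 27 were called (0.212% of 3776 genes), and 6 had an unadjusted p below 0.05 (15.7%). In NK-like cells the count was 0 of 33 (0.0933% of 5360 genes; 3 members at an unadjusted p below 0.05, against 6.59%), and in dendritic-like cells 0 of 34 (0.215% of 5105 genes; 0 members at an unadjusted p below 0.05, against 10.4%). In malignant-like cells 0 of 34 were called (0.364% of 5488 genes; 1 member at an unadjusted p below 0.05, against 10.7%).

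No member had genotypes without overlap in T-like cells (8.08% of genes were higher and 3.39% lower without overlap), in dendritic-like cells (5.43% and 4.11%) or in malignant-like cells (1.29% and 5.67%). The members not tested had low levels: Psmd10 in NK-like cells, Psmd5 in fibroblast-like cells, and Psmc1, Psmc5, Psmd6, Psmd14, Psmd5, Psmd9 and Psmd10 in neutrophil-like cells. The split of the called genes in T-like cells was 60 higher and 28 lower in deleted hosts, and with median-ratio scaling of summed UMIs it was 85 higher and 99 lower. In malignant-like cells it was 3 higher and 17 lower, and 21 higher and 37 lower with that scaling.

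Most members had lower means in deleted hosts in 4 of the 6 host classes, by small amounts. In T-like cells 9 of 34 members were higher, with a median log2 difference of −0.18 beside 0.11 over all genes, of which 61.1% were higher. The count was 10 of 34 in monocyte/macrophage-like cells (median −0.14, all genes 0.04, of which 54.4% were higher), 11 of 34 in dendritic-like cells (median −0.22, all genes 0.06, with 55.5% higher) and 8 of 33 in fibroblast-like cells (median −0.21, all genes 0.04, with 54% higher). NK-like cells had 19 of 33 members higher (median 0.07, all genes 0.10, with 59.7% higher), and the count was 11 of 33 without wild-type library 5 (median −0.06) and 22 of 33 without wild-type library 2 (median 0.15). Neutrophil-like cells had 24 of 27 higher (median 0.48, all genes 0.24, with 64.9% higher), and malignant-like cells 11 of 34 (median −0.08, all genes −0.08, with 41.1% higher), or 22 of 34 without deleted library 7 (median 0.09). Median-ratio scaling moved the median of all genes from 0.11 to 0.00 in T-like cells and from 0.24 to −0.08 in neutrophil-like cells. Relative to the median of all genes, the members' median was then −0.36 in T-like cells, against −0.29 before, and 19 of 27 members were higher in neutrophil-like cells. With that scaling 1 of 34 members was higher in T-like, 9 of 34 in NK-like (median −0.14) and in dendritic-like, 6 of 34 in monocyte/macrophage-like, 2 of 33 in fibroblast-like and 16 of 34 in malignant-like cells. Among cells of at least 2000 UMIs, 13 of 34 members were higher in NK-like (median −0.10) and 6 of 34 in T-like cells (−0.25). There it was 4 of 34 in monocyte/macrophage-like (−0.27), 1 of 33 in fibroblast-like (−0.28), 12 of 34 in dendritic-like (−0.15) and 13 of 34 in malignant-like cells (−0.05). No member was called in that repeat.

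The intervals bound how large a rise could have been missed. In T-like cells the 95% interval of 33 of 34 members ended below a 2-fold rise in deleted hosts, a limit that 78.9% of all genes met. The same limit was met by 30 of 34 members in monocyte/macrophage-like cells (76.7% of genes), 32 of 33 in fibroblast-like cells (69.8%), 30 of 34 in dendritic-like cells (63.4%) and 31 of 34 in malignant-like cells (79.4%). In NK-like cells it held for 24 of 33 (58.3%), and in neutrophil-like cells for only 3 of 27 (37%), so that the intervals of most members there included a 2-fold rise at this depth.

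**Figure D2:**
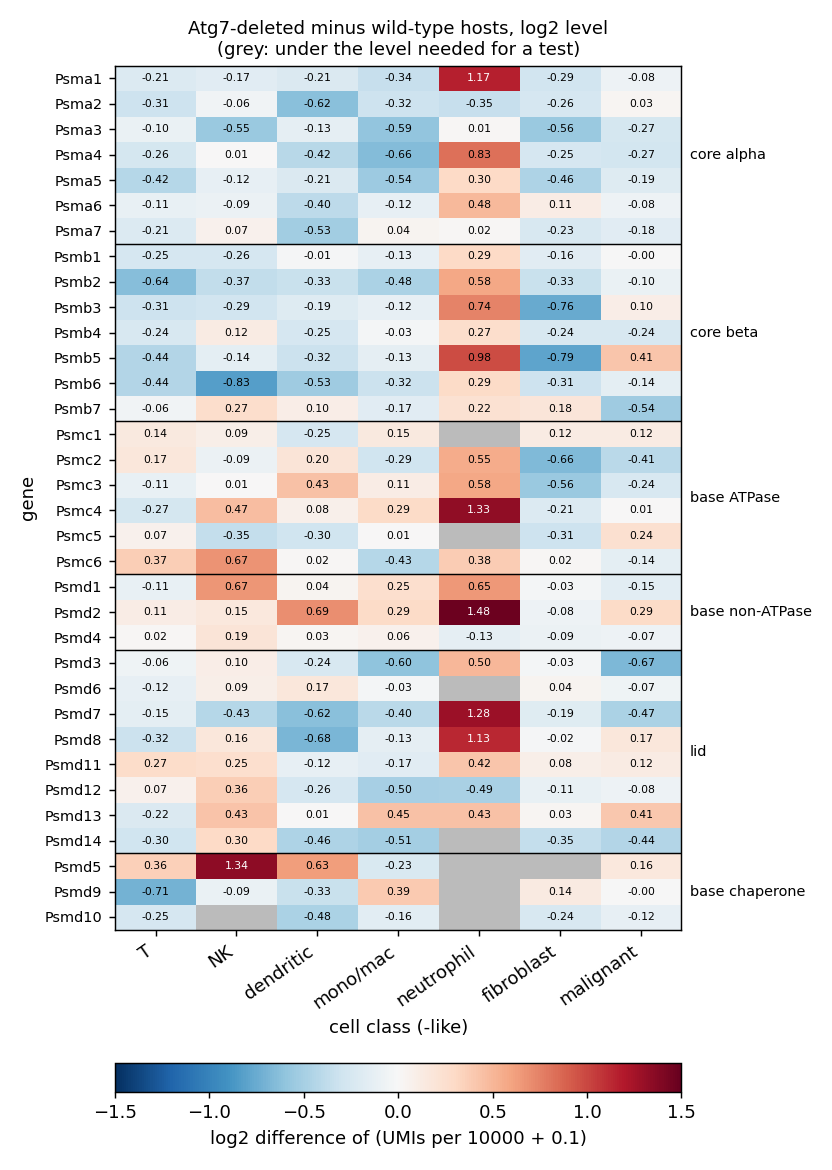
Log2 difference of the level (UMIs per 10000 + 0.1) between Atg7-deleted and wild-type hosts for each of the 34 genes (rows, by place in the proteasome) in each cell class (columns), red for higher and blue for lower in deleted hosts, with the value printed and grey where the level was too low for a test. Rows of the core are mostly blue outside the neutrophil-like column, and the neutrophil-like column is mostly red, up to 1.48 for Psmd2; no value passed the test.

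The alpha subunits form the outer rings of the core and gate its entry. All 7 were lower in deleted hosts in T-like and dendritic-like cells, 6 of 7 in monocyte/macrophage-like and fibroblast-like cells and 5 of 7 in NK-like cells, and 6 of 7 were higher in neutrophil-like cells. The median log2 difference of the 7 was −0.21 in T-like, −0.40 in dendritic-like, −0.34 in monocyte/macrophage-like and −0.26 in fibroblast-like cells. Psma2 was lower in all 6 host classes, by 0.06 to 0.62 on the log2 scale, and of 27 members tested in all 6 no other was on 1 side in all; the classes share their libraries, so these are not independent sightings. In neutrophil-like cells the negative value came with a library at 0 UMIs (deleted library 7), and the mean levels there were 0.580 in wild-type and 0.594 in deleted hosts.

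Psma3 (Mus musculus chromosome 12, 70974621 to 70996347, plus strand, GRCm38) was the member with the smallest unadjusted p in monocyte/macrophage-like cells. Its level there was 2.25, 2.42, 1.79 and 2.64 per 10000 UMIs in wild-type libraries 1, 2, 5 and 6 and 1.40, 1.60, 1.23 and 1.67 in deleted libraries 3, 4, 7 and 8. Every deleted library was below every wild-type library, with a log2 difference of −0.59 ± 0.21 (SE; limma unadjusted p = 0.0173, adjusted p = 0.473). The genotypes also did not overlap in fibroblast-like cells, where Psma3 was 1.85 ± 0.447 in wild-type and 1.20 ± 0.0882 (SD, n = 4 each) in deleted hosts (limma adjusted p = 0.447), nor in NK-like cells (−0.55 ± 0.29, limma adjusted p = 0.751). In T-like cells the log2 difference was −0.10 and the ranges overlapped. The processed pseudogene Gm13835 matches Psma3 over 685 bases at 100% identity, so reads of the pair cannot be told apart over that length.

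In all, 4 members of monocyte/macrophage-like cells had genotypes that did not overlap, all lower in deleted hosts, a pattern found for 2.46% of genes, with 3.31% higher; beside Psma3 these were Psmd3, Psmd12 and Psmd14 of the lid, of which Psmd12 was singled out after its values were seen. Psmd3, a scaffold of the lid (chromosome 11, 98682554 to 98695979, plus strand), was 0.608, 0.861, 0.563 and 0.566 in wild-type libraries 1, 2, 5 and 6 and 0.411, 0.443, 0.280 and 0.434 in deleted libraries 3, 4, 7 and 8. Its log2 difference was −0.60 ± 0.21 (SE; limma adjusted p = 0.473). Psmd14 (chromosome 2, 61711694 to 61800376, plus strand), the metalloprotease that removes ubiquitin chains from bound substrates, was 1.16, 1.03, 0.969 and 0.932 in the wild-type and 0.668, 0.930, 0.557 and 0.629 in the deleted libraries, in the same order. For Psmd14 the lowest wild-type and highest deleted value, 0.932 and 0.930, all but met (log2 difference −0.51 ± 0.20 SE, limma adjusted p = 0.522). Psmd12 was 0.602 ± 0.0795 in wild-type and 0.398 ± 0.0807 (SD, n = 4 each) in deleted hosts (limma adjusted p = 0.532). The smallest library of this class, deleted library 7, gave 3 UMIs of Psmd3 and 4 of Psmd12. The class sat in different clusters in different libraries: of its 6 clusters, 3 with 3506 of its 7573 cells took 90.1% and 96.6% (deleted library 3) and 89.8% (deleted library 4) of their cells from 1 library. Without these 3 clusters Psmd3, Psmd12 and Psmd14 were again lower in every deleted library (limma adjusted p from 0.756 to 0.907), and Psma3 was not (log2 −0.33, limma adjusted p = 0.943). Among cells without a fibroblast-marker UMI, which left 3 deleted libraries, only Psmd3 and Psmd14 of the 4 were lower in each of them. Psma3 and Psmd12 overlapped there (limma adjusted p from 0.733 to 0.845 for the 4).

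The beta subunits form the inner rings and hold the cutting sites. All 7 were lower in deleted hosts in T-like and monocyte/macrophage-like cells, 6 of 7 in dendritic-like and fibroblast-like cells and 5 of 7 in NK-like cells, and all 7 tested were higher in neutrophil-like cells. Psmb2, a non-cutting subunit of these rings (chromosome 4, 126677630 to 126709714, plus strand), had the smallest unadjusted p of T-like cells. It was 1.29, 1.51, 0.684 and 1.53 in wild-type libraries 1, 2, 5 and 6 and 0.620, 0.728, 0.796 and 0.808 in deleted libraries 3, 4, 7 and 8. Wild-type library 5 lay within the deleted range, and the other wild-type libraries were above it (log2 difference −0.64 ± 0.25 SE, limma unadjusted p = 0.0238, adjusted p = 0.209).

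Among the 3 cutting subunits, Psmb5 holds the chymotrypsin-like site, Psmb6 the caspase-like site and Psmb7 the trypsin-like site. In T-like cells Psmb5 (chromosome 14, 54614119 to 54618022, minus strand) was 0.970, 1.28, 0.636 and 1.63 in the wild-type and 0.991, 0.883, 0.592 and 0.648 in the deleted libraries, overlapping, with a log2 difference of −0.44 ± 0.27 (SE; limma adjusted p = 0.413). Psmb6 (chromosome 11, 70525367 to 70527858, plus strand) was 1.40 ± 0.350 in wild-type and 0.994 ± 0.143 (SD, n = 4 each) in deleted hosts (−0.44 ± 0.21 SE, limma adjusted p = 0.310). Psmb7 (chromosome 2, 38588036 to 38644087, minus strand) was 0.933 ± 0.376 and 0.915 ± 0.425 (SD, n = 4 each; −0.06 ± 0.33 SE, limma adjusted p = 0.942). None of the 3 differed beyond the spread between libraries.

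Monocyte/macrophage-like cells gave smaller differences for the cutting subunits. There Psmb5 was 1.31 ± 0.250 in wild-type and 1.18 ± 0.205 (SD, n = 4 each) in deleted hosts (limma adjusted p = 0.908), Psmb6 1.99 ± 0.293 and 1.65 ± 0.693 (limma adjusted p = 0.807), and Psmb7 1.45 ± 0.859 and 1.20 ± 0.568 (limma adjusted p = 0.945). In malignant-like cells Psmb5 was 1.34 ± 0.277 in wild-type and 1.87 ± 0.663 (SD, n = 4 each) in deleted hosts (log2 difference 0.41, limma adjusted p = 0.724), Psmb6 1.35 ± 0.325 and 1.24 ± 0.485 (−0.14, adjusted p = 0.954) and Psmb7 1.77 ± 0.721 and 1.23 ± 0.709 (−0.54, adjusted p = 0.709). All of these ranges overlapped.

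In fibroblast-like cells the smallest unadjusted p belonged to Psmb5, which was 0.937, 1.28, 0.868 and 1.56 in wild-type libraries 1, 2, 5 and 6 and 0.599, 0.714, 0.540 and 0.596 in deleted libraries 3, 4, 7 and 8. Every deleted library was below every wild-type library (log2 difference −0.79 ± 0.26 SE, limma unadjusted p = 0.00952, adjusted p = 0.286), and 2 members, Psmb5 and Psma3, had this pattern in the class, against 2.92% of genes; no member was higher without overlap (3.57%). The wild-type values rest on 32 to 64 fibroblast-like cells per library. Psmb3 (chromosome 11, 97703399 to 97713500, plus strand), a non-cutting beta subunit, was 1.20, 1.47, 0.623 and 2.01 in the wild-type and 0.752, 0.547, 0.653 and 0.815 in the deleted libraries. Wild-type library 5 was within the deleted range for Psmb3 (−0.76 ± 0.33 SE, limma adjusted p = 0.427). In NK-like cells Psmb6 was 1.60, 0.795 and 1.95 in wild-type libraries 2, 5 and 6 and 0.922, 0.561, 0.872 and 0.604 in deleted libraries 3, 4, 7 and 8 (−0.83 ± 0.35 SE, limma adjusted p = 0.739). Psmb3 and Psmb5 each have a processed pseudogene of over 97% identity, and reads of the copies may have been split.

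**Figure D3:**
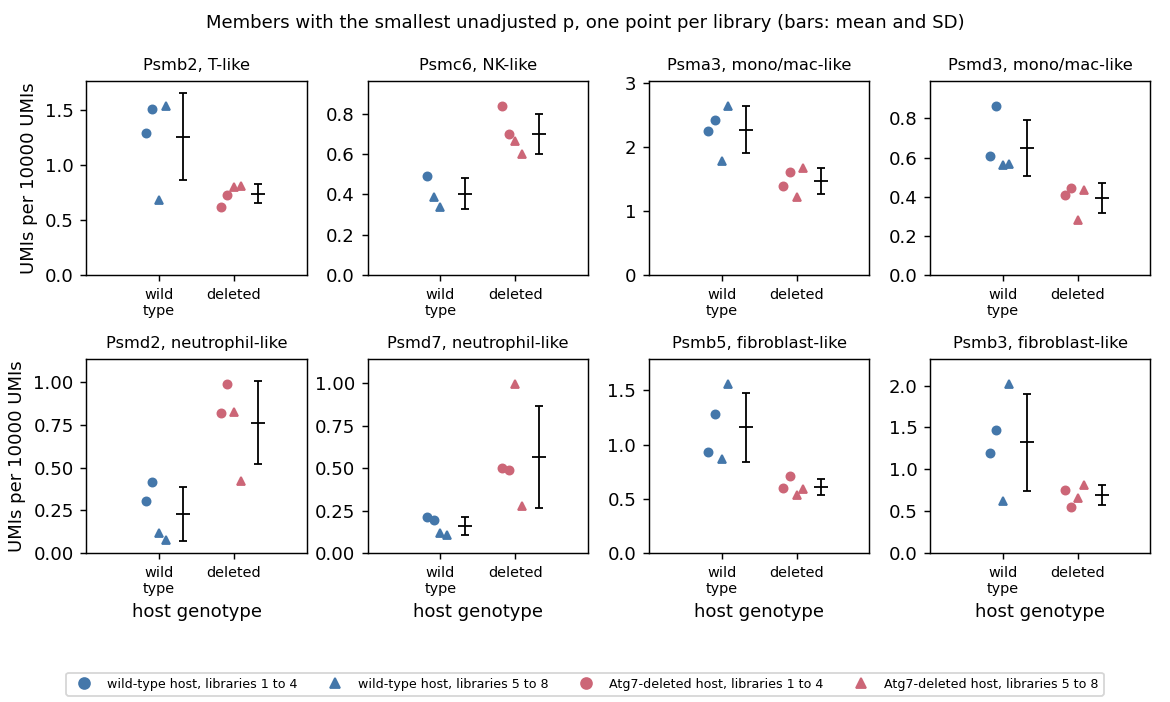
Level (vertical axis, UMIs per 10000 UMIs) of 8 class and gene pairs among those with the smallest unadjusted p, by host genotype (horizontal axis), 1 point per library, circles for libraries 1 to 4 and triangles for libraries 5 to 8, with mean and SD. Psma3 and Psmd3 in monocyte/macrophage-like and Psmb5 in fibroblast-like cells are lower in each deleted library, Psmc6 in NK-like and Psmd2 and Psmd7 in neutrophil-like cells higher in each, and none passed the test.

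The 6 ATPases of the base unfold the substrate and open the core. Of these, 4 of 6 were higher in deleted hosts in T-like, dendritic-like, NK-like and monocyte/macrophage-like cells, with medians from 0.05 to 0.11 on the log2 scale. This was close to all genes of the same classes, with medians from 0.04 to 0.11 and 54.4% to 61.1% of genes higher. All 4 tested in neutrophil-like cells were higher (64.9% of genes), and 2 of 6 in fibroblast-like cells (54%). Whether core and base differed from each other was not tested. Psmc6 (chromosome 14, 45329788 to 45349705, plus strand) was 0.489, 0.387 and 0.336 in NK-like cells of wild-type libraries 2, 5 and 6 and 0.836, 0.697, 0.662 and 0.601 in deleted libraries 3, 4, 7 and 8. All deleted libraries were higher (log2 difference 0.67 ± 0.30 SE, limma unadjusted p = 0.0406, adjusted p = 0.739). In the same class Psmd1 and Psmd13 were also higher without overlap, making 3 members against 5.21% of genes, and Psma3 was the 1 member lower without overlap, against 2.07%. In T-like cells Psmc6 differed by 0.37 (limma adjusted p = 0.379) with overlap.

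The non-ATPase subunits of the base, Psmd1, Psmd2 and Psmd4, hold the docking and ubiquitin-binding sites. Psmd2 (chromosome 16, 20651652 to 20663414, plus strand) was the member with the smallest unadjusted p in neutrophil-like and in dendritic-like cells. In neutrophil-like cells it was 0.31, 0.42, 0.12 and 0.08 in wild-type libraries 1, 2, 5 and 6 and 0.82, 0.99, 0.83 and 0.42 in deleted libraries 3, 4, 7 and 8. The highest wild-type library lay just under the lowest deleted one, and the log2 difference was 1.48 ± 0.45 (SE; limma unadjusted p = 0.00546, adjusted p = 0.195). These levels rest on 2 to 77 UMIs per library, and 5.92% of cells had a UMI. In dendritic-like cells Psmd2 was 0.593, 1.5 and 0.673 in wild-type libraries 2, 5 and 6 and 1.5, 2.04, 1.23 and 1.13 in deleted libraries 3, 4, 7 and 8, overlapping through wild-type library 5 (0.69 ± 0.35 SE, limma adjusted p = 0.499). In T-like and monocyte/macrophage-like cells its difference was 0.11 and 0.29.

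The next smallest unadjusted p in neutrophil-like cells belonged to Psmd7 and Psmd8, both of the lid. Psmd7 (chromosome 8, 107580381 to 107588464, minus strand), the partner of Psmd14 in the lid, was 0.21, 0.19, 0.12 and 0.11 in wild-type libraries 1, 2, 5 and 6 and 0.50, 0.49, 0.99 and 0.28 in deleted libraries 3, 4, 7 and 8. It was higher in each deleted library (log2 difference 1.28 ± 0.44 SE, limma unadjusted p = 0.0113, adjusted p = 0.210), on 2 to 55 UMIs per library. Psmd8 was 0.13, 0.63, 0.51 and 1.03 in the wild-type and 1.24, 1.43, 1.26 and 0.82 in the deleted libraries (1.13 ± 0.45 SE, limma adjusted p = 0.264), with overlap. With Psmd11, 3 members were higher in deleted hosts without overlap, against 8.29% of genes, and none was lower (2.25%). Deleted library 7, which held only 39 neutrophil-like cells, had no UMI of the tested members Psma2, Psmb2, Psmc2, Psmc3, Psmd4, Psmd12 and Psmd13, and the highest level of Psmd7, and without this library 27 of 28 members were higher, with a median of 0.73. Without deleted library 3 the count was 16 of 24 (median 0.23), and without deleted library 4 it was 18 of 25 (median 0.30), against 24 of 27 (median 0.48) with all libraries. Fibroblast markers were high in deleted libraries 3 and 4, while T, NK and malignant markers were not above the wild-type range there. Dendritic markers were above it, with sums of 0.866 and 0.241 against 0 to 0.131 in wild-type libraries. So were those of skeletal muscle (1.62 and 0.0948 against 0 to 0.0660), mast cells (0.268 and 0.104 against 0 to 0.0466) and pericytes (0.353 and 0.0229 against 0 to 0.00920). The 7 fibroblast markers (collagens, Dcn, Lum and Pdgfra) summed to 25.9 and 7.13 UMIs per 10000 in neutrophil-like cells of deleted libraries 3 and 4, against 0.191 to 1.37 in wild-type libraries and 0.242 and 0.840 in deleted libraries 7 and 8, and 1 of the 7 had a UMI in every library. The 8 neutrophil markers summed to 315 and 244 there, against 474 to 741 in wild-type and 269 and 524 in deleted libraries 7 and 8, and the 10 monocyte/macrophage markers to 6.70 and 4.85, against 2.65 to 4.87 in wild-type. Among neutrophil-like cells without a fibroblast-marker UMI, which left too few cells of deleted library 3 (10), 14 of 25 members were higher, with a median of 0.19 beside 0.15 over all genes, and no member was called. The other lid subunits of the tested host classes showed no shared direction. Of 8 lid genes, 7 were higher in NK-like cells (median 0.21), 5 of 6 tested in neutrophil-like cells, 3 in fibroblast-like, 2 in T-like and dendritic-like cells and 1 in monocyte/macrophage-like cells (median −0.28). Psmd8 in dendritic-like cells was 2.51, 1.49 and 2.79 in wild-type libraries 2, 5 and 6 and 1.48, 1.79, 0.758 and 1.51 in deleted libraries 3, 4, 7 and 8 (−0.68 ± 0.34 SE, limma adjusted p = 0.499), and Psma2 there was 2.1 ± 1.02 (SD, n = 3) and 1.30 ± 0.421 (SD, n = 4; limma adjusted p = 0.577). In malignant-like cells Psmd3 was 0.624, 0.769, 0.606 and 0.557 in wild-type libraries 1, 2, 5 and 6 and 0.196, 0.712, 0.362 and 0.305 in deleted libraries 3, 4, 7 and 8, overlapping through deleted library 4 (−0.67 ± 0.31 SE, limma adjusted p = 0.458). Psmd7 in these cells was 1.21 ± 0.270 in wild-type and 0.828 ± 0.0932 (SD, n = 4 each) in deleted hosts (limma adjusted p = 0.574), and Psmd13 0.747 ± 0.135 and 1.03 ± 0.229 (adjusted p = 0.668). Psmd3 and Psmd7 were called lower in malignant-like cells when the deposited log values were averaged in place of linear ones (log2 −0.25 and −0.38, limma adjusted p = 0.0299 and 0.0355). That average depends on the depth of each cell, whose medians in this class lay between 9600.5 and 16637 UMIs in wild-type and between 1921 and 15128 in deleted libraries.

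Psmd5, Psmd9 and Psmd10 encode chaperones that help to assemble the base and leave it afterwards. Psmd9 was 0.651, 0.542, 0.440 and 0.556 in T-like cells of wild-type libraries 1, 2, 5 and 6 and 0.308, 0.518, 0.0892 and 0.403 in deleted libraries 3, 4, 7 and 8. Deleted library 4 overlapped with the wild-type range (−0.71 ± 0.32 SE, limma unadjusted p = 0.0477, adjusted p = 0.275). Psmd5 was 0.0261, 0.458 and 0.0851 in NK-like cells of wild-type libraries 2, 5 and 6 and 0.554, 0.234, 0.916 and 0.469 in deleted libraries 3, 4, 7 and 8, on 2 to 31 UMIs per library (1.34 ± 0.51 SE, limma adjusted p = 0.739). Both genes had ranges that overlapped.

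Malignant markers had a higher mean summed level in host cells of wild-type tumors, which held 9993 of the malignant-like cells against 404 in deleted tumors. In T-like cells the 7 malignant markers summed to 1.93 to 3.30 UMIs per 10000 in wild-type and 0.0741 to 0.911 in deleted libraries, and no marker had a UMI in every library. These sums include Epcam, which had no UMI in malignant-like cells but had UMIs in T-like cells of 7 of 8 libraries, up to 0.355. In fibroblast-like cells the sums were 0.0461 to 4.69 and 0.0242 to 1.09, and those of monocyte/macrophage-like cells 0.494 to 9.70 and 0 to 2.49. In cells without a UMI of these markers no member was called, and the median log2 difference was −0.12 in T-like cells with 12 of 34 members higher, −0.10 in monocyte/macrophage-like and 0.01 in fibroblast-like cells, where it had been −0.21. In fibroblast-like cells 16 of 32 members were then higher. A similar shift came from all fibroblast-like cells of only the libraries with at least 50 of them (median −0.02, 13 of 32 higher). That limit left out wild-type libraries 1 and 2, with 46 and 32 such cells. Whether the shift came with the marker UMIs or with the libraries used was not tested.

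Fibroblast markers went the other way in host cells, mainly in deleted libraries 3 and 4. Their sum in T-like cells was 0.108 to 0.510 in wild-type libraries and 15.04, 3.47, 0.392 and 0.358 in deleted libraries 3, 4, 7 and 8. Monocyte/macrophage-like cells had 0.0422 to 2.64 in wild-type libraries and 53.9, 17.4, 1.83 and 1.04 in the deleted ones. In deleted libraries 3 and 4 it was 22.6 and 4.00 in NK-like cells, against 0 to 0.403 in wild-type libraries, and 13.7 and 2.67 in dendritic-like cells, against 0 to 0.416. In deleted library 3, 92.7% to 99.4% of the cells of these classes and of neutrophil-like cells had a fibroblast-marker UMI, so that cells without one could be compared only without this library. Among such cells no proteasome gene was called, and 8 of 34 were higher in T-like (median −0.33), 12 of 34 in NK-like (−0.17), 5 of 34 in dendritic-like (−0.39) and 14 of 34 in monocyte/macrophage-like cells (−0.10). In dendritic-like cells deleted library 4 was left out as well.

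Of 12 genes of a proliferation list, 9 were tested in T-like cells, 6 were not called, among them Mki67 (limma adjusted p = 0.357) and Top2a (0.240), and 3 were lower in deleted hosts: Birc5 (0.663 ± 0.0577 in wild-type, 0.237 ± 0.0642 in deleted hosts, SD, n = 4 each; log2 −1.20, limma adjusted p = 0.0217), a mitotic regulator, Pclaf (log2 −1.02, adjusted p = 0.0302), a replication factor, and Ube2c (log2 −1.16, adjusted p = 0.0365), a ubiquitin-conjugating enzyme of mitosis. Each was lower in every deleted library. With each of the 8 libraries left out in turn the directions held, but the calls did not all hold: Birc5 was called in 5 of 8 fits and not without wild-type library 1, 2 or 6 (limma adjusted p from 0.0299 to 0.0643), Ube2c in 1 of 8, without deleted library 3 (0.0455 to 0.111), and Pclaf in 0 of 8 (0.0598 to 0.0870). None of the 3 was called in T-like cells without a malignant-marker UMI (log2 −1.15, −0.99 and −1.08 for Birc5, Pclaf and Ube2c, limma adjusted p = 0.125, 0.209 and 0.142), where the marker sum had been 2.81 in wild-type and 0.360 in deleted hosts on average. Nor was any called in cells with a Cd8a or Cd8b1 UMI (−0.34, −0.10 and −0.71, limma adjusted p from 0.625 to 0.949) or without a filter on low genes (limma adjusted p from 0.0861 to 0.124). In T-like cells without a UMI of 9 proliferation genes, 15 of 34 proteasome genes were higher in deleted hosts in place of 9, with a median log2 difference of −0.05. No member was called among those cells.

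Host cells were also set against the malignant-like cells of the same library, whose Atg7 is intact in both hosts. The within-library log2 difference of host minus malignant-like level was compared between genotypes, and 0 members were called in any of the 6 host classes. The shares of genes called were 1.72% of 4234 for T-like, 0% of 4052 for NK-like, 0.734% of 3952 for dendritic-like, 0.0706% of 4247 for monocyte/macrophage-like, 0.353% of 2836 for neutrophil-like and 0.593% of 4386 for fibroblast-like cells. At an unadjusted p below 0.05 the members numbered 2, 0, 1, 0, 7 and 3 in this order of classes, against 16.3%, 9.25%, 13.1%, 10.2%, 19.8% and 11.4% of genes. The smallest p-values were those of Psmb5 in fibroblast-like cells (log2 −1.21, limma unadjusted p = 0.0011, adjusted p = 0.0969), Psmd7 in neutrophil-like cells (1.76, adjusted p = 0.0864) and Psmb5 in T-like cells (−0.85, adjusted p = 0.0960). For T-like cells, Psmb5 was called at a pseudocount of 1 (log2 −0.52, limma adjusted p = 0.0444). The mean log2 level of Psmb5 in T-like minus malignant-like cells was −0.28 in wild-type and −1.13 in deleted hosts. The malignant-like cells of deleted libraries 3 and 4, which had the highest malignant Psmb5 levels of 2.71 and 2.1, were the 44 and 148 cells of low depth. In malignant-like cells the summed level of fibroblast markers was 17.3 and 8.06 in deleted libraries 3 and 4. It was 0.374 to 2.98 in wild-type libraries and 1.48 in each of deleted libraries 7 and 8. Mast-cell markers summed to 7.62 in deleted library 4, against at most 0.00206 in wild-type libraries. Sums of malignant markers ran from 28.7 to 42.5 in wild-type and from 19.8 to 29.0 in deleted libraries. The part of these differences in the comparison was not tested.

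The libraries themselves differed more than the genotypes for several members. Libraries 1 to 4 and libraries 5 to 8 each held 2 libraries of either genotype, and their cell barcodes recurred within a set (16 shared barcodes within libraries 1 to 4 and 161 within libraries 5 to 8) more than between sets (3); the labels give no batch. Between the sets, 11 members of monocyte/macrophage-like cells were lower in libraries 5 to 8, where 20.2% of genes were lower, and 1 member, Psmd11, was higher (8.86% of genes). In T-like cells 8 members were lower (7.01% of genes), in malignant-like cells 5 (6.49%), in fibroblast-like cells 2 (2.23%) and in dendritic-like cells 1 (1.37%); in NK-like and neutrophil-like cells none was called (0.858% and 2.38%). No member was higher in libraries 5 to 8 in these classes apart from Psmd11.

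Psmc2, an ATPase of the base (chromosome 5, 21785283 to 21803787, plus strand), showed the largest set difference. In monocyte/macrophage-like cells it was 0.911, 0.957, 0.692 and 0.993 in libraries 1, 2, 3 and 4 and 0.206, 0.268, 0.0984 and 0.210 in libraries 5, 6, 7 and 8, with no overlap (log2 −1.77 ± 0.20 SE). It was called lower in 4 of 7 classes, as was Psmb7, which in monocyte/macrophage-like cells had 1.92 ± 0.392 in libraries 1 to 4 and 0.732 ± 0.0972 (SD, n = 4 each) in libraries 5 to 8. Psmd2 and Psmd4 were called in 3 classes each. The subunits of 1 complex did not move together between the sets: Psmd11 was 1.29 ± 0.173 in libraries 1 to 4 and 2.27 ± 0.508 (SD, n = 4 each) in libraries 5 to 8 of the same cells. Psmb7 shares 255 identical bases with a transcript of Nek6, and Psmd11 has a processed pseudogene of 97.951% identity. With the set as a term in the genotype fit, still no member was called in any class.

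**Figure D4:**
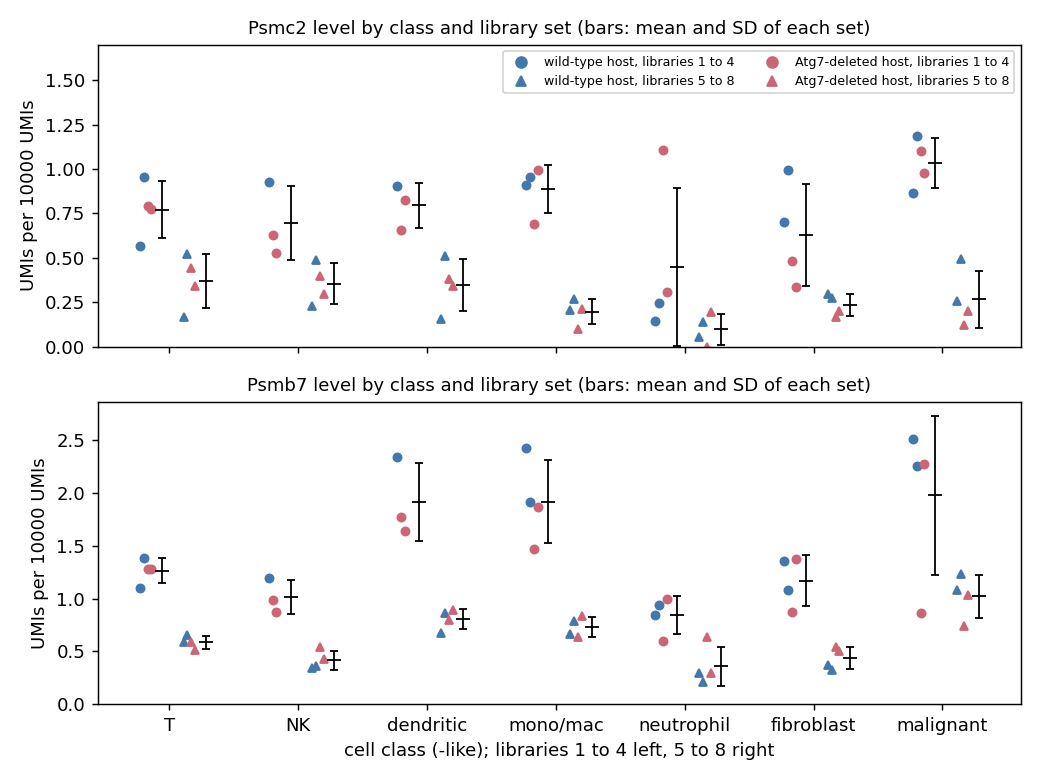
Level of Psmc2 (top) and Psmb7 (bottom), in UMIs per 10000 UMIs on the vertical axes, in each cell class (horizontal axis), with libraries 1 to 4 left (circles) and libraries 5 to 8 right (triangles), blue for wild-type and red for Atg7-deleted hosts, and mean and SD of each set. In monocyte/macrophage-like cells Psmc2 lies between 0.692 and 0.993 in libraries 1 to 4 and between 0.0984 and 0.268 in libraries 5 to 8, with both genotypes in each set.

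Genes around the constitutive proteasome gave no calls between genotypes either. Of the 3 immunoproteasome genes, none was called in any class; their summed level was 9.18 in wild-type and 6.4 in deleted T-like cells and 5.91 and 10.0 in neutrophil-like cells, with 3 of 3 lower in the former and 3 of 3 higher in the latter. In T-like cells Psmb8 was 5.53 ± 2.07 in wild-type and 3.67 ± 1.12 (SD, n = 4 each) in deleted hosts (log2 −0.54, limma adjusted p = 0.410). None of the activators Psme1 to Psme4 and the inhibitor Psmf1, the assembly factors with Pomp, the ubiquitin and E1 genes or the shuttle factors with Vcp was called in the 7 classes. Pomp, which assembles the core, was 3.34 ± 0.744 and 2.29 ± 0.662 (SD, n = 4 each) in T-like cells (limma adjusted p = 0.297). In neutrophil-like cells Uba1, the main ubiquitin-activating enzyme, was 0.329 ± 0.127 in wild-type and 1.03 ± 0.348 (SD, n = 4 each) in deleted hosts (log2 1.40, limma adjusted p = 0.159). Uba1, Psmb8, Pomp and Ddi2 were singled out after their values were seen. Sqstm1, the cargo receptor p62 that autophagy degrades as a protein, was 10.5 ± 2.76 in wild-type and 10.2 ± 2.90 (SD, n = 4 each) in deleted monocyte/macrophage-like cells (limma adjusted p = 0.980).

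The NRF1 route was no exception. Nfe2l1, which encodes NRF1, was 0.486 ± 0.265 in wild-type and 0.620 ± 0.166 (SD, n = 4 each) in deleted T-like cells (log2 0.37, limma adjusted p = 0.547) and 0.712 ± 0.238 and 0.674 ± 0.112 in monocyte/macrophage-like cells (−0.03, limma adjusted p = 0.985). Ddi2, the protease that releases NRF1 from its membrane form, was 0.169 ± 0.0625 in wild-type and 0.348 ± 0.0653 (SD, n = 4 each) in deleted fibroblast-like cells (0.76, limma adjusted p = 0.357). No gene of this list was called in any class.

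NRF1 binds antioxidant response elements, whose core is often written TGACNNNGC, and the promoters of Psmb5, Psmb6 and Psmc6 are shown as 3 of the 5 members whose promoters hold this core, all named in the comparisons above. Each is the stretch from 250 bases before to 50 after the transcription start, from RefSeq on GRCm38.p6, given 5′ to 3′ on the gene's strand, with the match on either strand in capitals. They lie at chr14:54617946-54618245 (minus strand) for Psmb5, chr11:70525107-70525406 (plus strand) for Psmb6 and chr14:45329574-45329873 (plus strand) for Psmc6.
Psmb5: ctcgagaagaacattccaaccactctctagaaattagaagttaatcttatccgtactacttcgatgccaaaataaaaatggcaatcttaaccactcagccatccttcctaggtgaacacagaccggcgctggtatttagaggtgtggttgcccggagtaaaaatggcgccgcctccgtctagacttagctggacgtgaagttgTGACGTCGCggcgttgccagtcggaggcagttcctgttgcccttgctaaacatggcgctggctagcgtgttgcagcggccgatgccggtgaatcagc
Psmb6: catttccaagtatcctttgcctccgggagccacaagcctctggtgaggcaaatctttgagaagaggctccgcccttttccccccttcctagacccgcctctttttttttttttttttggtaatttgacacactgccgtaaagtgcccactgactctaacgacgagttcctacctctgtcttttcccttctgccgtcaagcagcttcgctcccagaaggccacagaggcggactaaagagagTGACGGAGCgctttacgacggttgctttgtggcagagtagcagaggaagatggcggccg
Psmc6: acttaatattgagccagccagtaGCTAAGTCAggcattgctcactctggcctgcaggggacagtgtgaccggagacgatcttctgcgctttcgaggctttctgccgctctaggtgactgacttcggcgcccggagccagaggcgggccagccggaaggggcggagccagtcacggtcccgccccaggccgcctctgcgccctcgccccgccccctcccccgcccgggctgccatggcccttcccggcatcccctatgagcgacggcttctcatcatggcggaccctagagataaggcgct
The match starts 47 bases before the start site in Psmb5, 9 before in Psmb6 and 227 before in Psmc6, where it lies on the opposite strand. None of the 3 genes differed between genotypes by the test in any class. The match is a description of letters and not a binding site.

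Promoters were found for 28 of the 34 members, as 30 records, and motifs were searched on both strands. TGACNNNGC was in 16.7% of the member promoters (Psmb5, Psmb6, Psmc6, Psmd9 and Psmd12) and 12.4% of all 32851 promoters, its wider form TGANNNNGC in 56.7% and 41.3%, and the stricter TGANTCAGC in 3.33% and 1.19%, with TGACTCAGC in 0% and 0.454%; these 4 overlap one another. The letters CCGGAAG, read by ETS factors, were in 36.7% of member promoters and 8.86% of all, and GGCGG, read by SP factors, in 90.0% and 48.8%. CCAAT was in 36.7% and 37.4%. The others were rare in both: TTCCGGAA, which can overlap CCGGAAG, in 3.33% and 0.712%, and AAGATGGCG in 6.67% and 1.40%. The shares were not tested.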

How the data were processed

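The 8 matrices hold, per cell and gene, natural log values deposited by the authors, ln(1 + 10000 × gene UMIs / total UMIs of the cell), a unit read from the values. Cell Ranger 2.1, Seurat 3.0 and mm10 come from the submitters' processing notes, which state no further step here. Cells were spun through a density gradient after dissociation, per the labels' protocols. Of 29496 deposited cells, 919 with under 200 genes or at least 10% mitochondrial UMIs were removed. Doublets were not removed; 1210 of the 28577 kept cells had over 4500 genes. Cells were clustered (scanpy 1.11.5, 2000 variable genes, 30 principal components, 15 neighbors, Leiden of igraph 0.11.9 at resolution 1, seed 1) and clusters named from marker lists, needing 3 markers in at least 10% of cells. Unnamed cells made up 6.29% ± 3.57 (SD, n = 4) in wild-type and 6.01% ± 4.34 (SD, n = 4) in deleted libraries. Most were 1 cluster of 1824 cells with monocyte/macrophage markers. It was left unnamed because its depth was low against that of its libraries and none of its leading genes was such a marker. Its median of 1973 UMIs per cell was above the 1033 and 1702 of named monocyte/macrophage-like clusters.

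The values were turned back to linear UMIs per 10000 and averaged over the cells of a class per library with at least 20 cells. These means were compared, as log2(mean + 0.1), with limma 3.58.1 in R 4.3.3 over genes of mean level at least 0.2, with Benjamini-Hochberg adjustment. Linear means were preferred since averaged logarithms shift with cell depth. The fits were tested on simulated data. Members and lists were chosen with earlier results of these data known. The members named in a class are those that passed, or else the 3 with the smallest unadjusted p, and always Psmb5, Psmb6 and Psmb7 in T-like, monocyte/macrophage-like and malignant-like cells. Coordinates are from GENCODE M21; near-identical copies are transcripts of other genes with at least 97% identity over 200 bases, found for 10 of 34 members. Alternatives changed the pseudocount, the filter, the scaling, the averaging, the clustering resolution, the cells used, a term for library set and each library left out.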

Additional observations from a re-analysis of the deposited data

Results flagged for a closer look

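Of 76 groups of 4 libraries examined, 3 had 1 library far from the other 3, and chance alone flags about 1 in 20 such groups. In monocyte/macrophage-like cells of wild-type hosts, Psmd3 was 0.861 UMIs per 10000 in library 2 and between 0.563 and 0.608 in the others. In fibroblast-like cells of deleted hosts, Atg7 was 0.238 in library 4 and between 0.0480 and 0.0593 in the others. In malignant-like cells of deleted hosts, Psmd13, a lid subunit that shares a stretch of sequence with Sirt3, was 1.37 in library 4, with 0.881 to 0.956 in the others, and library 4 held 148 such cells of low depth.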

How the results depend on the processing

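Of 195 further fits, 193 called no member; the exceptions were 2 members in malignant-like cells with averaged log values and 1 member for T-like minus malignant-like cells at a pseudocount of 1. Leaving out any 1 library called none. The median member difference in monocyte/macrophage-like cells was −0.70 at clustering resolution 0.5, with only 2 wild-type libraries left, and the cause was not tested. No NK-like fit could be made at that resolution, nor a neutrophil-like fit from 2000 UMIs per cell.

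Small differences changed sign: Psmb7 in T-like cells, over libraries left out from −0.24 to 0.15, 0.14 without malignant marker UMIs and 0.21 in cells with a Cd8a or Cd8b1 UMI; Psmb7 in monocyte/macrophage-like cells, from −0.45 to 0.12; Psmb6 in malignant-like cells, from −0.36 to 0.046 (without deleted library 3), and 0.046 with at least 50 cells. With averaged log values Psmd13 and Psmb5 in malignant-like cells were −0.026 and −0.11. Counts of all genes called ranged widely: 0 to 413 in T-like (88 as reported), 0 to 12 in NK-like (5), 0 to 62 in dendritic-like (11), 0 to 93 in monocyte/macrophage-like (1), 0 to 39 in neutrophil-like (8), 1 to 28 in fibroblast-like (5) and 2 to 1196 in malignant-like cells (20). Without library 1, T-like cells had 2 called higher and 1 lower. No paired analysis was possible because the genotypes share no replicate number. Choices added after seeing the data (the large unnamed cluster joined to the monocyte/macrophage-like class, the 1-library clusters of this class left out, the deepest T-like cluster left out) gave medians of −0.07, −0.15 and −0.16. The repeat without fibroblast-marker UMIs was also added then. The median member difference changed sign with 1 library left out in NK-like (−0.09 to 0.16) and malignant-like cells (−0.30 to 0.09).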
